A study of Mus musculus with 5 samples.

Results

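The mitotic genes examined here encode the cyclins, kinases, phosphatases, motor proteins, checkpoint proteins and chromosome proteins that carry a cell through division. Of 50 genes named for this purpose, 49 had at least 1 probe set annotated to that gene alone, 112 probe sets in all, out of 18193 genes measured. Ccnb1, which encodes cyclin B1, had no such probe set and was not analysed here. Expression was measured on Affymetrix arrays, 1 array per sample, in 2 sorted mouse cell populations. Brain dendritic cells (DCs; 2 arrays) were Lin-CD45hiCD11c+ cells of C57BL/6 brains, taken 12 days after the mice were injected subcutaneously with B16-Flt3L tumour cells. B16 cells are mouse melanoma cells, and the Flt3 ligand they secrete here expands dendritic cells, so the brain DC donors carried a tumour and were exposed to a growth factor. Monocytes (3 arrays) were SSCloCD11bhi CD115+ cells of C57BL/6 bone marrow, for which the labels name no treatment. All 5 samples are labelled female and 6 to 8 weeks old. Neither pooling of animals nor separate animals per sample is stated, and the p-values below therefore reflect the spread between these arrays, which may be technical.

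Division is driven by cyclin B and cyclin A bound to the kinase CDK1, which CDC25 phosphatases switch on. The spindle checkpoint then holds back the anaphase-promoting complex until every kinetochore is attached, after which securin and cyclin B are destroyed, separase opens the cohesin rings and the cell is cut at the midzone. Most of these genes are transcribed late in the cell cycle, and their promoters are known for a CCAAT box, bound by the factor NF-Y, and for the cell cycle genes homology region (CHR), with the core letters TTTGAA, bound by the DREAM and MuvB complexes. Among blood cells, marrow progenitors divide, whereas circulating monocytes and differentiated dendritic cells mostly do not.

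The promoters of 4 mitotic genes that were lower in brain DCs are shown because the 2 motifs can be read directly in them. That of the 1 gene that was higher is shown beside them. Each is the 300 bases from 250 before to 50 after the gene start in RefSeq (build GRCm38.p6), 5′ to 3′ on the gene's strand, with matches to CCAAT or TTTGAA on either strand in capitals. Ccnf (cyclin F) is at chr17:24251360-24251659 on the minus strand, Prc1 (a midzone microtubule bundler) at chr7:80294201-80294500 on the plus strand, Ccnb2 (cyclin B2) at chr9:70421505-70421804 on the minus strand, Plk1 (polo-like kinase 1) at chr7:122159185-122159484 on the plus strand, and Pttg1 (securin) at chr11:43425932-43426231 on the minus strand.
Ccnf: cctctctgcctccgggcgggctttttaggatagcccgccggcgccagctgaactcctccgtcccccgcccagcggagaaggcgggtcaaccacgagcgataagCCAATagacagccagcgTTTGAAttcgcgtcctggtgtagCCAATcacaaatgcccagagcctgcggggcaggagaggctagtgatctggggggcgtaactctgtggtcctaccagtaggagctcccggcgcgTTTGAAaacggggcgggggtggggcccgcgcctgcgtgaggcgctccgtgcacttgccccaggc
Prc1: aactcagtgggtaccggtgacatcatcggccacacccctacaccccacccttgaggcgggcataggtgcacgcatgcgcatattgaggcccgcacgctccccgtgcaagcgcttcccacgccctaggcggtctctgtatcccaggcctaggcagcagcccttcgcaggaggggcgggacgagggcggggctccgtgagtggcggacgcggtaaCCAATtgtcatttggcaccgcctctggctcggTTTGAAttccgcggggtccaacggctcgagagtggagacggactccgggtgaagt
Ccnb2: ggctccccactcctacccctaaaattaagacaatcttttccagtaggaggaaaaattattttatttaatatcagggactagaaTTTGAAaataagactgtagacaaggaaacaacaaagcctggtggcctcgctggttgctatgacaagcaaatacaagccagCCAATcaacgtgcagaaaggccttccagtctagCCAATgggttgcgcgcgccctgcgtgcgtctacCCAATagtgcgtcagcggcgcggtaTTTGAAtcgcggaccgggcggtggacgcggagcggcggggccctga
Plk1: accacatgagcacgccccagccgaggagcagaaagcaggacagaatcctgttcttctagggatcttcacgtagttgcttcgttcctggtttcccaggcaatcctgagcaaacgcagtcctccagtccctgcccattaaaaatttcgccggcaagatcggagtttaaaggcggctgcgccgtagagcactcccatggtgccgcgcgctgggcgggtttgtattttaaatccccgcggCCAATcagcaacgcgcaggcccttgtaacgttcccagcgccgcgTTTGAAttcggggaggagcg
Pttg1: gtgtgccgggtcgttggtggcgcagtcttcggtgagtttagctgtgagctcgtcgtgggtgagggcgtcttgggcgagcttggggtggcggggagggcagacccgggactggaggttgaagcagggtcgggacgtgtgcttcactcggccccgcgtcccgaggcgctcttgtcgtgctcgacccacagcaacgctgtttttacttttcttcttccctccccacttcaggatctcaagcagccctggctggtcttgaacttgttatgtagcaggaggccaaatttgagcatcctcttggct
Ccnb2 held 3 CCAAT matches whose first bases lay at -87, -54 and -21 relative to the gene start, 33 bases apart, and TTTGAA matches at -167 and 5. In the Ccnf window the CCAAT matches began at -147 and -107 and the TTTGAA matches at -130 and -14. Prc1 had 1 match to each motif, and so did Plk1. The Pttg1 window held neither set of letters. The same was true of Mad2l1, Ncaph, Nuf2 and Nusap1, all called lower in brain DCs, and of Birc5, which was not called.

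A RefSeq window was at hand for 41 of the 49 measured mitotic genes. TTTGAA was found in 32 of them (78.0%), against 15.7% of the 14452 genes on the arrays that had a window. CCAAT was found in 30 (73.2%), against 42.0% of those genes, and 19 mitotic genes (46.3%) held at least 2 matches, against 14.9%. Both motifs stood in the same window in 27 mitotic genes (65.9%), against 6.21%. Both motifs stood in 67.6% of the 34 windows of genes called lower in brain DCs and in 66.7% of the 6 windows of genes not called. Over the 45 windows of the mitotic genes, which include alternative starts and Ccnb1, the TTTGAA matches gathered near the start, with 70.2% of 47 matches beginning within 50 bases of it, against 22.7% of 2668 matches in other genes. For CCAAT, 58.3% of 72 matches began between -120 and -20, against 48.8% of 10089 in other genes. A match describes the letters and shows no binding.

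**Figure D1:**
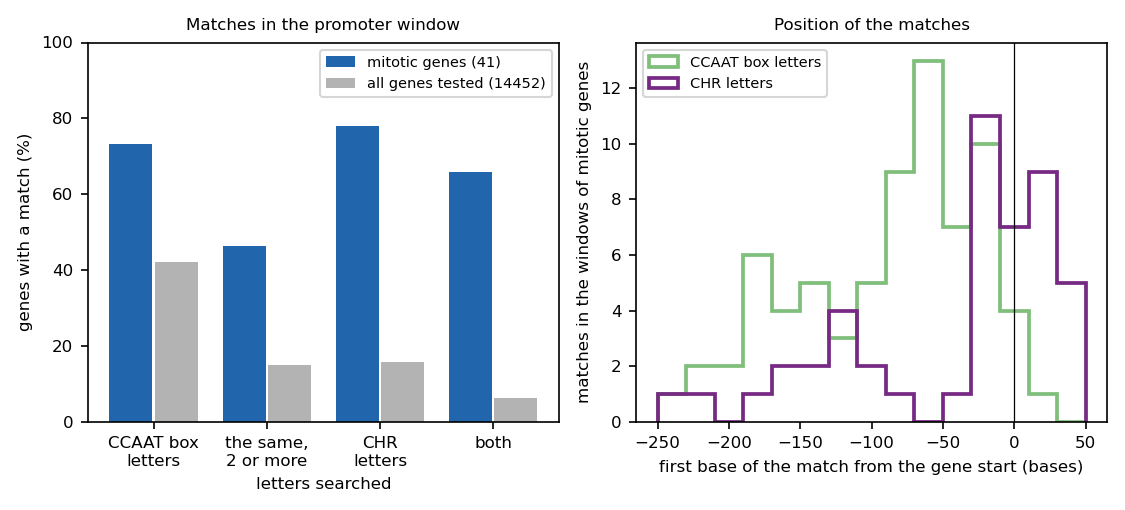
Left, the share of genes (%) with each motif in the promoter window, for the 41 mitotic genes (blue) and the 14452 genes on the arrays with a window (grey). Right, the distance in bases from the gene start to the first base of each match in the 45 windows of the mitotic genes, Ccnb1 included, where TTTGAA (the CHR letters, purple) gathers around the start and CCAAT (green) mostly before it.

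The deposited log2 values are centred within each probe set and were averaged over the probe sets of a gene. They give differences between arrays but no absolute level, so the level of one gene cannot be set against that of another. A difference is the brain DC mean less the monocyte mean, given ± its SE from limma (n = 2 brain DC and 3 monocyte arrays), and a gene was called at an adjusted p under 0.05. Permuting 5 arrays exactly could reach no two-sided p under 0.1, and every call below is limma's. Sort gate and identity genes followed the labels: all 12 measured markers of conventional dendritic cells were higher in brain DCs and all 7 measured markers of monocytes were lower. Several technical measures moved with the groups. The 5′ minus 3′ value of the beta-actin control probe sets was 0.16 and 0.31 in brain DCs, against -3.99, -3.98 and -1.60 in monocytes, and that of Gapdh 0.34 and 0.22 against -2.78, -2.86 and -2.28. The median of 24 poly-A spike-in probe sets, RNA added during labelling, was 2.35 and 2.63 in brain DCs, against -0.13, -0.15 and 0.02 in monocytes. For 18 hybridization spike-in probe sets the median was 1.24 and 0.90 in brain DCs, against -0.07, -0.04 and -0.05 in monocytes. The part of these measures in the results was not tested. Cell type, tissue, tumour, Flt3 ligand exposure and these technical measures cannot be told apart.

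Mitotic genes were lower in brain DCs than in bone marrow monocytes. Of 49 genes, 39 were lower, 1 was higher and 9 were not called, whereas 16.9% of all genes were called lower and 16.9% higher. The median difference was -1.50, against 0.09 over all genes, and 48 of the 49 differences were negative. The median of the genes was -0.23 and -0.17 in the 2 brain DC arrays, against 0.78, 1.89 and 1.49 in the 3 monocyte arrays. The groups did not overlap for 43 of the genes with brain DCs lower, against 25% of all genes. In 37 the called decrease was at least 2-fold, against 7.51% of all genes. In 12 it was at least 4-fold, for which the share of all genes was not counted. In such sorted bulk samples, fewer dividing cells and less RNA per dividing cell cannot be told apart. The members were chosen with results of these data known, so the list carries no test of its own, and adjusted p-values of the called genes lay between 0.00075 and 0.0466.

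**Figure D2:**
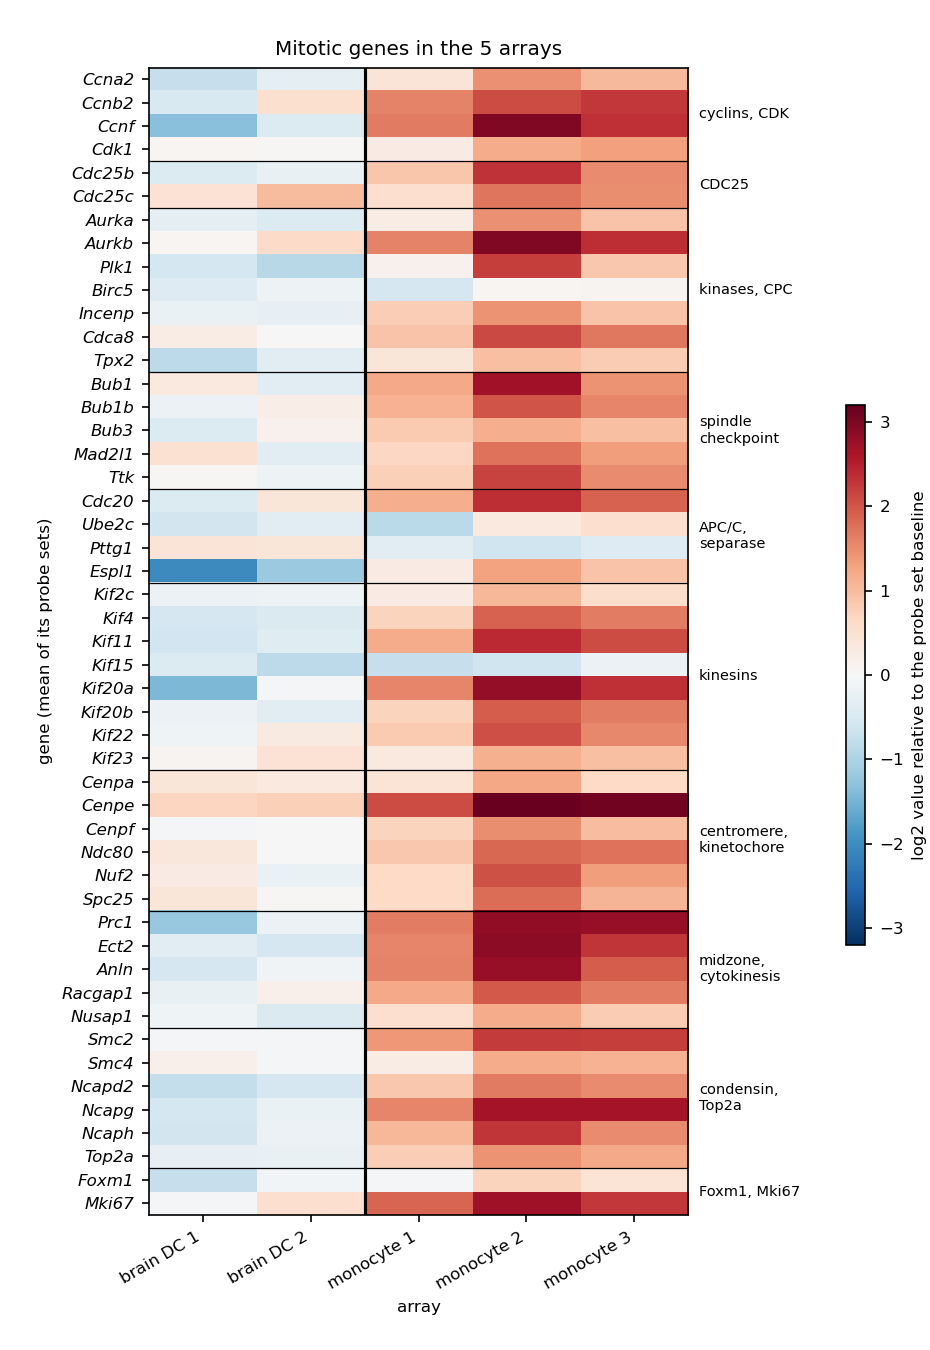
Heat map of the log2 value, relative to the probe set baseline, of the 49 mitotic genes (rows, grouped by role) in the 2 brain DC arrays (left of the line) and the 3 monocyte arrays (right). Most rows are near or below the baseline in brain DCs and above it in monocytes, where monocyte 1 is the palest of the 3.

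Among the cyclins and their kinase, 3 of 4 genes were lower in brain DCs. Ccnf, whose product is the substrate receptor of a ubiquitin ligase rather than a partner of CDK1, was at -1.34 and -0.43 in brain DCs, against 1.65, 2.97 and 2.34 in monocytes. The groups were far apart, and Ccnf had the largest decrease of all 49 genes, 9.25-fold (-3.21 ± 0.40 SE, limma adjusted p = 0.000863). Ccnb2, a mitotic cyclin, was at -0.50 and 0.51 in brain DCs, against 1.58, 2.08 and 2.25 in monocytes, a 3.90-fold decrease (-1.96 ± 0.31, limma adjusted p = 0.0027). Ccna2, the cyclin of DNA replication and early mitosis, was 2.83-fold lower (-1.50 ± 0.30), a call that did not hold when brain DC replicate 1 was left out (limma adjusted p = 0.0517). Cdk1 itself was at 0.07 and 0.03 in brain DCs, against 0.25, 1.20 and 1.30 in monocytes. The groups did not overlap, yet monocyte 1 lay close to the brain DC arrays and Cdk1 was not called (-0.87 ± 0.30, limma adjusted p = 0.0591). Without monocyte replicate 1 it was (-1.20, limma adjusted p = 0.00233). Of the phosphatases that activate CDK1, Cdc25b was lower (-1.90 ± 0.36). Cdc25c, at 0.46 and 1.02 in brain DCs against 0.53, 1.72 and 1.49 in monocytes, overlapped between the groups and was not called (-0.51).

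Of 7 genes for mitotic kinases, their activator and the chromosomal passenger complex, 6 were lower in brain DCs. Aurkb, the kinase of the passenger complex, was at 0.06 and 0.61 in brain DCs, against 1.58, 2.95 and 2.36 in monocytes (-1.96 ± 0.37, limma adjusted p = 0.0057). Its partners Incenp, the scaffold (-1.29 ± 0.20), and Cdca8, which encodes borealin (-1.45 ± 0.32), were lower too. Birc5, which encodes survivin, the fourth subunit, was the exception, at -0.41 and -0.17 in brain DCs against -0.53, 0.06 and 0.08 in monocytes. Its 1 probe set overlapped between the groups (-0.16 ± 0.21, limma adjusted p = 0.605). Aurka, the spindle pole kinase (-1.25 ± 0.31), and its activator Tpx2 (-1.31 ± 0.22) were lower. The call of Aurka did not hold when brain DC replicate 1 or brain DC replicate 2 was left out (limma adjusted p = 0.0648 and 0.0825). That of Cdca8 did not hold when brain DC replicate 2 was left out (limma adjusted p = 0.061) or without the _s_at and _x_at probe sets, which can match several transcripts (-0.87, limma adjusted p = 0.0719). Plk1, a kinase that acts from mitotic entry to cytokinesis, was at -0.57 and -0.88 in brain DCs, against 0.13, 2.21 and 0.85 in monocytes. The 3 monocyte values were spread more widely than those of any other of the 49 genes, and the call (-1.79 ± 0.52, limma adjusted p = 0.0325) was lost without brain DC replicate 1, brain DC replicate 2 or monocyte replicate 3 (limma adjusted p from 0.057 to 0.133).

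All 5 spindle checkpoint genes were called lower in brain DCs with all arrays, and 2 of them, Bub1b and Bub3, kept that call without any 1 array. Bub1, a checkpoint kinase, was at 0.31 and -0.33 in brain DCs, against 1.21, 2.69 and 1.44 in monocytes (-1.79 ± 0.42, limma adjusted p = 0.0154). Bub1b, which encodes BUBR1, was 2.92-fold lower (-1.55 ± 0.26), as was Ttk, the kinase MPS1 (-1.54 ± 0.36). Mad2l1, the inhibitor of CDC20, fell by 1.18 and Bub3, which carries the BUB proteins to kinetochores, by 1.14. Mad2l1 lost its call when brain DC replicate 2 was left out, and likewise for replicate 2 or 3 of the monocytes (limma adjusted p from 0.0815 to 0.187) and fell by 0.76 without brain DC replicate 2. Without brain DC replicate 2 the calls of Bub1 (limma adjusted p = 0.0907) and Ttk (limma adjusted p = 0.068) were lost too. Bub3 had the narrowest monocyte range of the 48 genes with negative differences, 0.34.

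The partners and targets of the anaphase-promoting complex went both ways. Cdc20, its mitotic activator, was at -0.43 and 0.39 in brain DCs, against 1.16, 2.36 and 1.88 in monocytes (-1.82 ± 0.36, limma adjusted p = 0.00729), a call that did not hold when brain DC replicate 1 was left out (limma adjusted p = 0.0516). Espl1, which encodes separase, the protease that cuts cohesin, was at -2.04 and -1.19 in brain DCs, against 0.26, 1.28 and 0.91 in monocytes, 5.38-fold lower (-2.43 ± 0.34). Ube2c, the ubiquitin-conjugating enzyme of the complex, was not called, at -0.58 and -0.35 in brain DCs against -0.86, 0.31 and 0.53 in monocytes (-0.46 ± 0.38). Its monocyte 1 value lay below both brain DC arrays and the other monocyte arrays above them, and without monocyte replicate 1 it was lower in brain DCs (-0.89, limma adjusted p = 0.0112). Pttg1, which encodes securin, the inhibitor of separase, was the only gene called higher, at 0.40 and 0.38 in brain DCs against -0.34, -0.63 and -0.41 in monocytes (0.85 ± 0.14, limma adjusted p = 0.00267). This call came from 1 of its 3 probe sets. That probe set was at 0.62 and 0.88 in brain DCs, against -1.51, -1.72 and -1.30 in monocytes (2.26 ± 0.18), while the others differed by 0.38 and -0.08 and were not called.

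Of 8 kinesins, microtubule motors, 6 were lower in brain DCs. Kif20a, a motor of cytokinesis, was at -1.45 and -0.06 in brain DCs, against 1.55, 2.81 and 2.35 in monocytes, 7.95-fold lower (-2.99 ± 0.46, limma adjusted p = 0.00231). The 2 brain DC arrays were 1.39 apart, wider than in any other of the 49 genes, and both lay below every monocyte array. Kif11, the motor that pushes the spindle poles apart, was at -0.60 and -0.40 in brain DCs, against 1.18, 2.38 and 2.08 in monocytes (-2.38 ± 0.32), and its 3 probe sets were all called lower. Kif4, a chromosome-bound motor (-1.92 ± 0.31), Kif20b (-1.69 ± 0.33), Kif22 (-1.40 ± 0.33) and the microtubule depolymerase gene Kif2c (-0.81 ± 0.22) were lower as well. Kif22 lost its call without brain DC replicate 1 (limma adjusted p = 0.0898). Kif2c lost it without brain DC replicate 1, brain DC replicate 2 or monocyte replicate 3 (limma adjusted p from 0.0561 to 0.104), and without the _s_at and _x_at probe sets its difference was -0.32 (limma adjusted p = 0.226). Kif23, a subunit of centralspindlin, was at 0.08 and 0.46 in brain DCs against 0.30, 1.13 and 0.96 in monocytes and was not called (-0.53 ± 0.25). Kif15, at -0.45 and -0.85 in brain DCs against -0.74, -0.65 and -0.18 in monocytes on a single probe set, overlapped between the groups (-0.13 ± 0.21, limma adjusted p = 0.677).

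Centromere and kinetochore genes were lower in 5 of 6 cases. Cenpe, a kinetochore motor, was at 0.69 and 0.75 in brain DCs, against 2.09, 3.16 and 3.08 in monocytes, 4.16-fold lower (-2.06 ± 0.31, limma adjusted p = 0.00193). Of the NDC80 complex, which grips microtubules, Ndc80 (-1.29 ± 0.29), Nuf2 (-1.33 ± 0.37) and Spc25 (-0.96 ± 0.31) were lower. Ndc80 lost its call when brain DC replicate 2 was left out (limma adjusted p = 0.0749), as did Nuf2 without brain DC replicate 1, brain DC replicate 2 or monocyte replicate 3 (limma adjusted p from 0.056 to 0.142). The call of Spc25 was lost without any 1 of 4 arrays, all but monocyte replicate 1 (limma adjusted p from 0.0627 to 0.19). Cenpf, a large kinetochore protein, was 2.14-fold lower (-1.10 ± 0.22). Cenpa, the histone variant that marks centromeres, was at 0.40 and 0.32 in brain DCs against 0.44, 1.23 and 0.63 in monocytes and was not called as a gene (-0.41), although 1 of its 3 probe sets was (-1.16).

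All 5 midzone and cytokinesis genes were lower in brain DCs, with a median difference of -2.42. Prc1 was at -1.21 and -0.18 in brain DCs, against 1.63, 2.85 and 2.78 in monocytes, 8.64-fold lower (-3.11 ± 0.42, limma adjusted p = 0.00129). Ect2, which activates RhoA at the cleavage furrow, was at -0.33 and -0.54 in brain DCs, against 1.56, 2.87 and 2.30 in monocytes, 6.39-fold lower (-2.68 ± 0.34, limma adjusted p = 0.000923). Anln, the furrow scaffold anillin (-2.42 ± 0.33), Racgap1, the other centralspindlin subunit (-1.64 ± 0.23), and Nusap1, a spindle microtubule protein (-1.15 ± 0.21), were lower. For each of these genes every brain DC value lay below every monocyte value.

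Of 6 genes for condensin, which compacts chromosomes, and topoisomerase II alpha, 5 were lower in brain DCs. Ncapg was at -0.56 and -0.21 in brain DCs, against 1.57, 2.67 and 2.65 in monocytes, 6.41-fold lower (-2.68 ± 0.33, limma adjusted p = 0.000872). Ncapd2, at -0.75 and -0.53 in brain DCs against 0.87, 1.67 and 1.52 in monocytes, was 3.99-fold lower, with the lowest adjusted p of the 49 genes (limma adjusted p = 0.00075). Smc2 was 4.01-fold lower, and Ncaph (-2.01 ± 0.33) and Top2a (-1.39 ± 0.20) were lower too. Smc4, which pairs with Smc2 in condensin, was at 0.15 and -0.04 in brain DCs, against 0.24, 1.18 and 1.11 in monocytes and was not called (-0.79 ± 0.28, limma adjusted p = 0.0641). Mki67, the gene of the proliferation antigen Ki-67, was at -0.05 and 0.53 in brain DCs, against 1.85, 2.71 and 2.27 in monocytes, 4.11-fold lower (-2.04 ± 0.27, limma adjusted p = 0.00119). Foxm1, a transcription factor that drives late cell cycle genes, was at -0.73 and -0.09 in brain DCs, against -0.05, 0.72 and 0.43 in monocytes (-0.78 ± 0.26, limma adjusted p = 0.0568). Its groups were separated by a narrow gap, and its 4 probe sets ranged from -1.56 to 0.26. Of these, 1 was called lower (-1.03, limma adjusted p = 0.0349). As a gene, Foxm1 was called lower under some alternatives, such as quantile normalization, and not under others.

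Probe sets of the same gene often disagreed in size. Of 34 genes with several probe sets, 28 had only negative differences, 13 had every probe set called lower, and 15 were called lower with at least 1 probe set not called. Incenp spanned -2.56 to 0.10 over 5 probe sets, Top2a -2.62 to 0.02 over 3, and Kif2c -2.29 to 0.21 over 4. A gene's mean therefore mixes probe sets that differ in size, and which of them reads the transcript best was not tested. With each probe set as its own unit, a fit added after seeing the data, 70 of 112 were lower, 1 was higher and 41 were not called, against 16.8% of all probe sets lower.

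**Figure D3:**
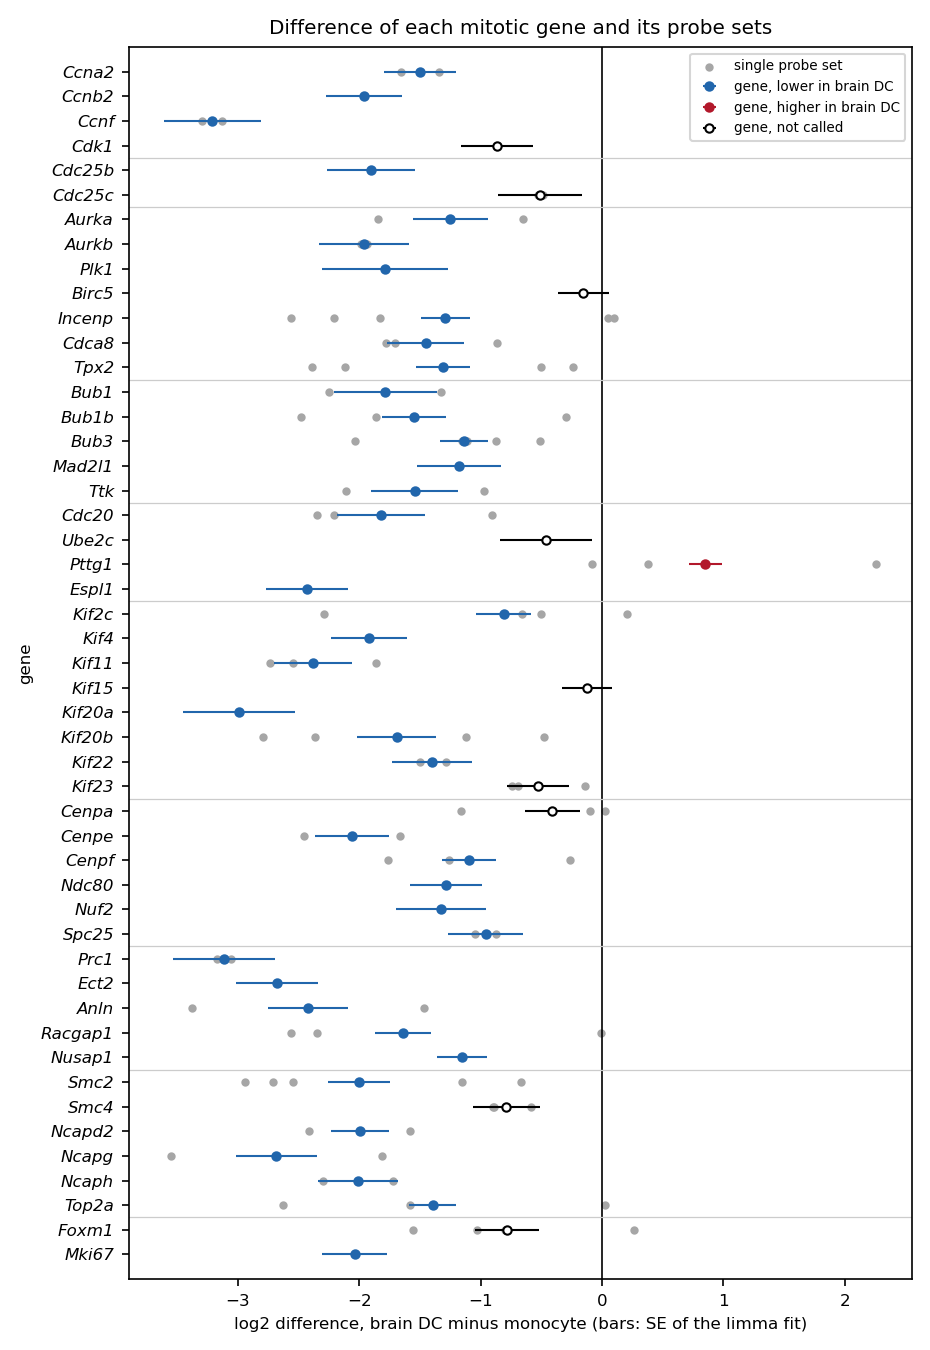
Log2 difference, brain DC minus monocyte, of each of the 49 mitotic genes (large points, bars for the SE of the limma fit) and of each of its probe sets (small grey points). Points left of 0 are lower in brain DCs, as are 48 of the 49 genes, and Pttg1, carried by a single probe set at 2.26, is the exception.

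The 3 monocyte arrays also differed from each other in these genes. Monocyte 1 had the lowest value of the 3 in 48 of 49 mitotic genes (98.0%), against 27.7% of all genes. Monocyte 2 had the highest in 43 (87.8%), against 33.8% of all genes, and monocyte 3 in 5. The median range over the 3 arrays was 1.07 for the mitotic genes, against 0.26 over all genes, and 40 of them had a range above 0.727, the 95th percentile of all genes. With 1 sample on each side there is no test of these differences, and replicates have no order. Monocyte 2 exceeded monocyte 1 by a median of 1.07 and at least 2-fold in 27 mitotic genes, against 0.89% of all genes. Monocyte 3 exceeded monocyte 1 at least 2-fold in 4, against 0.275% of all genes, and monocyte 2 exceeded monocyte 3 in 2, against 0.462%.

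Plk1 differed most, with monocyte 2 above monocyte 1 by 2.07 and above monocyte 3 by 1.35. Bub1 was also high in monocyte 2 alone, 1.49 above monocyte 1 and 1.26 above monocyte 3, with monocyte 3 only 0.23 above monocyte 1. Prc1, Ncapg and Smc2 had another pattern, with monocytes 2 and 3 within 0.06, 0.02 and 0.02 of each other and monocyte 1 lower by 1.22, 1.11 and 0.84 than monocyte 2. Cdk1, Ccnb2, Ube2c, Birc5 and Kif15 were highest in monocyte 3. Pttg1 was highest in monocyte 1 and had the narrowest range of the 49, 0.28. The shift between the brain DC arrays was smaller and less uniform: brain DC 2 exceeded brain DC 1 in 30 of 49 genes (61.2%), against 52.6% of all genes. The median difference was 0.21, against 0.017 over all genes. The median SD between arrays was 0.254 in brain DCs and 0.575 in monocytes for the mitotic genes, against 0.137 and 0.137 for all genes.

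Even monocyte 1 lay above both brain DC arrays in 43 of 49 mitotic genes (87.8%), against 35% of all genes. Monocyte 2 did so in 47 and monocyte 3 in 48, for which the share of all genes was not counted. Without monocyte replicate 1, 45 mitotic genes were lower in brain DCs in place of 39, with Cdk1, Cdc25c, Ube2c, Kif23, Smc4 and Foxm1 added. Of all genes, 14.3% were then lower in place of 16.9%. Without monocyte replicate 2, 37 mitotic genes were lower, against 14.3% of all genes, and without monocyte replicate 3, 34, against 14.6%. Of the 39 genes, 26 kept their call without any 1 of the 5 arrays and 13 lost it at least once.

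Other gene lists differed in how they lay across the monocyte arrays, again with no test. Monocyte 1 was lowest in 27.7% of all genes. It was lowest in 66 of 70 other mitotic genes, 35 of 48 DNA replication genes (72.9%) and 10 of 13 granulocyte precursor markers (76.9%). The share was 60% for the anaphase-promoting complex, 56.5% for the cell cycle transcription factors and 53.8% for cohesin and its regulators. In 19 cell cycle inhibitors it was 47.4%. Among the cell cycle lists only the 11 cyclins and kinases of the G1 phase, at 27.3%, were near the share of all genes. Marker lists other than the granulocyte precursors ran from 0% for monocyte and T cell markers to 33.3% for monocyte progenitor and stem markers. Of the 162 genes at least 2-fold higher in monocyte 2 than in monocyte 1, 27 were mitotic genes, 29 belonged to the list of other mitotic genes, 3 to DNA replication genes and 9 to granulocyte precursor markers. The 13 measured granulocyte precursor markers had medians of 1.33, 2.50 and 2.37 in monocytes 1, 2 and 3, against 0.37 and 0.65 in brain DCs. Mpo, which encodes the granule enzyme myeloperoxidase, was at 1.81, 5.72 and 5.22 in the monocyte arrays, the widest range of all genes. Its part in the mitotic difference was not tested, and centred values cannot show which markers are at 0.

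**Figure D4:**
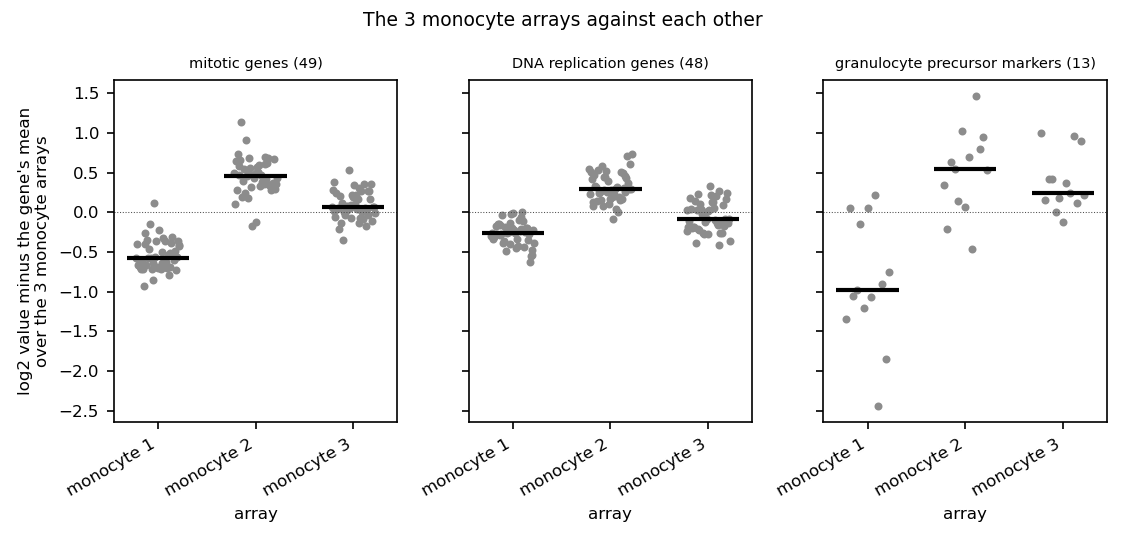
Log2 value of each gene minus its mean over the 3 monocyte arrays (points, 1 per gene; bars, medians) for the 49 mitotic genes, 48 DNA replication genes and 13 granulocyte precursor markers. Monocyte 1 lies lowest in all but 1 of the mitotic genes, and the 3 lists share a low median in monocyte 1 and their highest in monocyte 2.

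Genes that act beside the 49 in the same processes were compared in the same fit, where 16.9% of all genes were called in each direction. Of 70 other mitotic genes, 48 (68.6%) were lower in brain DCs, 0 higher and 22 not called, with a median of -1.05. Haspin, the histone kinase that recruits the passenger complex, was at -1.68 and -1.64 in brain DCs, against 1.67, 2.63 and 2.46 in monocytes (-3.92 ± 0.27), and Sgo2a, a protector of centromeric cohesin, fell by 3.87. Of 13 genes of cohesin and its regulators, 8 (61.5%) were lower and 0 higher. The cohesin acetylase gene Esco2 (-2.22 ± 0.34) and Cdca5, which encodes sororin (-2.12 ± 0.29), came first. Of 15 genes of the anaphase-promoting complex and its regulators, 5 (33.3%) were lower and 1 (6.67%) higher, with a median of -0.42. This list lay closer to all genes than the others here, with 60% not called. The inhibitor gene Fbxo5, which encodes EMI1, was the largest (-3.40 ± 0.27), and the subunit gene Anapc1 was at -1.12 ± 0.17. Of 48 DNA replication genes, 24 (50%) were lower and 1 (2.08%) higher, with a median of -0.71. Among the lower were Rrm2, the ribonucleotide reductase subunit (-2.37 ± 0.39), and Cdc6, which loads the replicative helicase (-1.95 ± 0.36).

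Regulators upstream of mitosis are read against the 16.9% of all genes called in each direction. Of 23 cell cycle transcription factors, 9 (39.1%) were lower in brain DCs and 3 higher, the second a share near that of all genes, with E2f7 (-3.61 ± 0.32), E2f2 (-2.42 ± 0.19), Myb (-2.22 ± 0.40) and E2f8 (-1.86 ± 0.32) the largest. Of 11 cyclins and kinases of the G1 phase and their activators, 3 (27.3%) were lower and 2 (18.2%) higher, the second share again near that of all genes. The D-type cyclins Ccnd1 (4.40 ± 0.15) and Ccnd2 (3.82 ± 0.23), which respond to growth factors, were higher in brain DCs, whereas the E-type cyclins Ccne2 (-4.15 ± 0.40) and Ccne1 (-1.37 ± 0.26), which act at the start of DNA replication, were lower. Ccnd1 was at 1.14 and 1.43 in brain DCs, against -3.07, -2.99 and -3.29 in monocytes. Of 19 cell cycle inhibitors and stress arrest genes, 8 (42.1%) were higher and 4 (21.1%) lower, with a median of 0.37. Cdkn1a, which encodes the CDK inhibitor p21, was at 1.84 and 2.34 in brain DCs, against 0.17, 0.10 and -0.05 in monocytes (2.02 ± 0.17), and Gadd45g (2.83 ± 0.28) and Gadd45b (2.39 ± 0.14) were higher as well. Ccng2, which encodes cyclin G2, was lower (-1.60 ± 0.17).

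**Figure D5:**
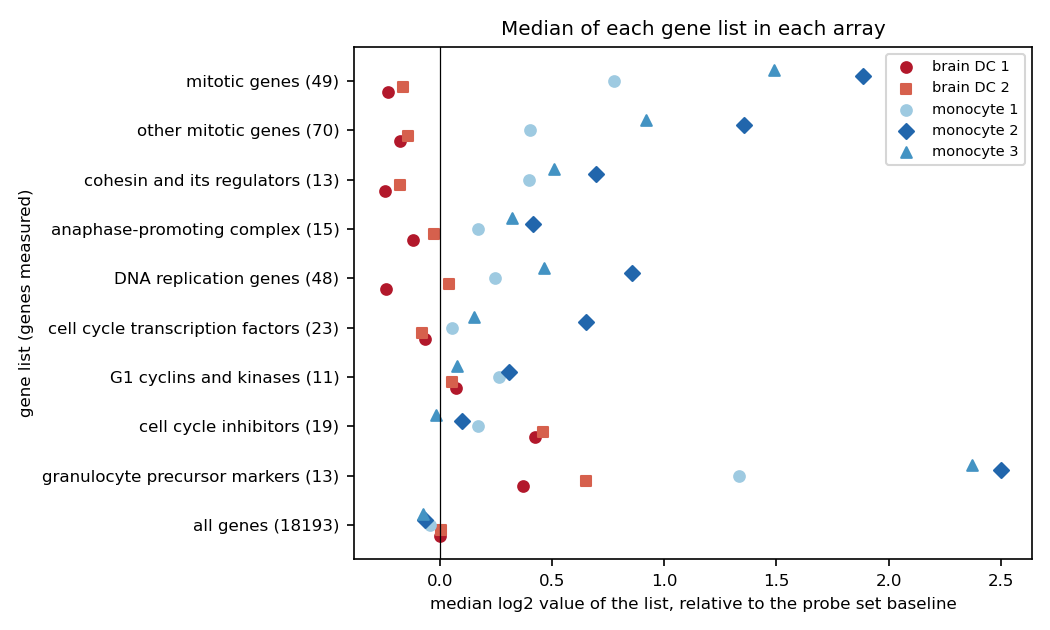
Median log2 value, relative to the probe set baseline, of each gene list in each of the 5 arrays (brain DC red, monocyte blue; numbers of genes in brackets). The monocyte medians of the mitotic genes, 0.78, 1.89 and 1.49, lie right of the brain DC medians of -0.23 and -0.17, the spread among monocytes narrows for the other lists except the granulocyte precursor markers, and the inhibitors lie the other way.

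Markers of other cells were counted in the same way. The lineage-negative, CD45-high gate of the brain DCs is nevertheless meant to remove lineage-positive blood cells and brain cells with low or no CD45. The lineage markers are not named in the labels. Of 13 granulocyte precursor markers, 8 were lower in brain DCs and 0 higher, and of 9 monocyte progenitor and stem markers 4 were higher and 3 lower. Flt3, among the 4, is also counted with the conventional dendritic cell markers, and Myb, among the 3, with the cell cycle transcription factors. All 7 microglia markers were higher in brain DCs, with medians of 1.42 and 1.88, against -0.28, -0.31 and -0.19 in monocytes, as were 4 of 7 natural killer cell markers and 4 of 13 markers of choroid plexus, glia, endothelium and neurons. Of 8 erythroid markers 2 (25.0%) were higher, of 8 B lineage markers 1 (12.5%) and of 5 T cell markers 2, against 16.9% of all genes, so the first pair of shares is near that of all genes. The 5 melanoma markers differed by -0.33 to 0.14 and were not called. The part of these cells in the mitotic difference was not tested.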

How the data were processed

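The measurements are 5 Affymetrix arrays (2 brain DC, 3 monocyte). Log2 values were deposited by the authors, and the submitters' processing notes name RMA. Its version, its centring and which arrays entered it together were not found in the labels. The values lie around 0 within each probe set, between -8.52 and 8.59, so the baseline and the log base are inferred from them. Of 45101 probe sets, 64 controls were left out of the tests, and 34945 probe sets with 1 gene symbol were averaged per gene into 18193 genes. Groups were compared by limma's lmFit and eBayes (limma 3.58.1, R 4.3.3; 3 residual and 4.43 prior degrees of freedom, prior SD 0.165), with Benjamini-Hochberg adjustment over all genes. No arrays held the same values (largest Pearson correlation over genes 0.913). The replicate numbers do not pair the samples. The 49 genes are all named, and up to 4 called genes per other list by size of difference. Members and lists were chosen with earlier results of these data known. Symbols were matched to RefSeq, assembly GRCm38.p6. Alternatives covered the probe set of a gene, normalisation, the variance model, the replicate block and each array left out. The number of arrays limits the precision.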

Additional observations from a re-analysis of the deposited data

How the results depend on the processing

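The 39 mitotic genes lower in brain DCs were 30 to 45 with each array left out and 36 to 40 under the other alternatives, and none of the 39 changed direction in any of the 12 alternatives. A brain DC group left with 1 array was assumed to vary like the monocytes. Over all 49 mitotic genes the median difference, -1.50, lay between -1.78 and -1.22 with each array left out. It was -1.98 when each gene was read from the probe set with the largest SD, which by construction favours probe sets that differ. With the probe set of the highest mean the median was -1.92 and the single higher gene became 0, with Pttg1 at -0.08 (limma adjusted p = 0.764). That mean is taken over 5 centred arrays, 3 of them monocyte. By construction it favours probe sets high in monocytes and does not read abundance. Kif15, not called, changed sign to 0.05 with the replicate block, to 0.07 without brain DC replicate 2 and to 0.05 without monocyte replicate 3, and ranged from -0.33 to 0.07 with each array left out. The count of mitotic genes highest in monocyte 2 was 39 to 43 under the alternatives tried. With the replicate number as a block, 39 mitotic genes were lower and 1 higher, with Mad2l1 lost and Foxm1 gained. Deviations of same-numbered arrays from their group means correlated at 0.045 and 0.088 over genes, so the pairing was not used. No scaling moved the median of all genes by over 0.1. Levels and detection above background cannot be read from centred values.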
